A study of Gallus gallus with 25 samples.

Results

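Male chicken gonads were compared between embryonic day 9.5 (E9.5) and embryonic day 6.5 (E6.5), using the arrays hybridised on 1 array chip, number 4011845. These were 7 of the 25 arrays of the study, and 7 of the 18 on that chip: 4 Male E9.5 arrays (replicates 1-1, 1-2, 2 and 3) and 3 Male E6.5 arrays (replicates 2, 3 and 6). The arrays were chosen by the labelled sex, stage and chip alone, with no use of their values. The study profiled microRNAs (miRNAs) in male and female embryonic gonads at E5.5, E6.5 and E9.5 on single-colour arrays. Each array received 500 ng of RNA shorter than 200 nucleotides, labelled with a Cy5 reagent that attaches to guanine.

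The E6.5 embryos were at Hamburger and Hamilton stages 29 to 30 and the E9.5 embryos at stages 35 to 36, and the labels name no strain, treatment or genotype. Gonads were pooled by sex before extraction at both stages. E6.5 embryos had been sexed by PCR before their lysates were pooled, whereas E9.5 embryos were sexed by eye at dissection and pooled directly, so stage and these handling steps cannot be told apart. Whether replicates 1-1 and 1-2 came from separate pools is not stated. The p-values reflect only how the 18 arrays of the chip scatter within their 6 groups of sex and stage, which may in part be technical. In pooled tissue, fewer cells of a type and less RNA per cell cannot be told apart either.

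A miRNA is a short RNA cut from a hairpin precursor, and it guides silencing complexes to messenger RNAs that pair with its seed, the bases near its 5′ end. Either strand of a hairpin can yield a mature miRNA, and the strand that was found less often was traditionally marked with a star. In the male embryo these stages span the start of testis formation, when cords of Sertoli and germ cells become set off from a vascularised interstitium. MiR-199a, miR-199a* and miR-214 are known from mesenchyme, miR-143 and miR-145 from smooth muscle and fibroblasts, and let-7 from developmental timing, rising as tissues mature in many animals.

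The probes are antisense DNA, so each reads as the reverse complement of the miRNA it captures. Those that carry the results are shown 5′ to 3′ as deposited. The capitals mark the bases opposite positions 2 to 8 of the target, counted as if the probe ended on the first base of the miRNA. The first set holds the 2 probes that rose and another that differs from gga-miR-199a by 1 base. The prefixes gga, dre, mmu, hsa and rno stand for chicken, zebrafish, mouse, human and rat.
gga-miR-199a: gaacaggtagtctgaACACTGGg
dre-miR-199*: aaccaatgtgcagaCTACTGTa
mmu-miR-199b: gaacaggtagtctaaACACTGGg

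The next set holds let-7, miR-26, miR-99 and miR-100 probes, several of them close relatives. Whether the stage differences of such relatives were unlike was not tested. Over their full length gga-let-7c differs from gga-let-7a by 1 base and from gga-let-7b by 1 base, and gga-miR-100 differs from gga-miR-99a by 1 base inside the shared stretch. The mmu-miR-99a probe ends 1 base earlier than gga-miR-99a, which moves its capitals by 1 base, and it has no mismatch to it over 20 bases.
gga-let-7a: aactatacaacctaCTACCTCa
gga-let-7b: aaccacacaacctaCTACCTCa
gga-let-7c: aaccatacaacctaCTACCTCa
gga-miR-26a: gcctatcctggatTACTTGAa
gga-miR-99a: cacaagatcggatcTACGGGTt
mmu-miR-99a: acaagatcggatCTACGGGt
gga-miR-100: cacaagttcggatcTACGGGTt

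The last set holds probes with values below those of E6.5. The 3 tested miR-31 probes read almost the same target: dre-miR-31 ends 1 base earlier and has no mismatch to gga-miR-31 over 21 bases, and mmu-miR-31 differs from gga-miR-31 by 1 base. The mmu-miR-20b probe lies within gga-miR-20b, and dre-miR-130b differs from gga-miR-130b by 1 base.
gga-miR-31: cagctatgccaacaTCTTGCCt
mmu-miR-31: cagctatgccagcaTCTTGCCt
dre-miR-31: cagctatgccaacATCTTGCc
gga-miR-20b: ctacctgcactatgaGCACTTTg
mmu-miR-20b: tacctgcactatgaGCACTTTg
dre-miR-130b: atgccctttcattaTTGCACTg
gga-miR-130b: acgccctttcattaTTGCACTg

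Each array carried 657 perfect-match mature miRNA probes, each beside a partner with 2 mismatched bases. Between 87 and 154 mature probes per array were detected, meaning brighter than the 95th percentile of that array's 7 negative controls. Probes detected on at least 3 of the 7 arrays were tested, which left 132: 39 named for chicken miRNAs, 4 candidates of the array maker and 89 named for other species. Probes carrying the name of another species report any chicken RNA that hybridises to them, and probes for the same miRNA share a target and are not independent. The E9.5 arrays correlated with each other at 0.785 to 0.909 over the tested probes, the E6.5 arrays at 0.659 to 0.733, and arrays of different stages at 0.530 to 0.878. The median correlation was 0.876 within E9.5, 0.729 within E6.5 and 0.785 between the stages. Male E6.5 replicates 3 and 6 had higher median correlations with the E9.5 arrays (0.812 and 0.831) than with their own stage (0.731 and 0.696). On the second principal component (24.2% of the variance) Male E6.5 replicate 6 lay at -5.06, against -1.82 to 3.42 for the other 6 arrays. Male E6.5 replicate 2 stood apart, at -7.67 on the first principal component (42.4% of the variance) against -0.34 to 4.44 for the other 6 arrays. Where the difference of a named probe moved by over 1.5 times without that array, both values are given, and likewise for any other array that moved a difference so far, probes with differences under 0.2 apart.

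Of the 132 tested probes, 2 rose from E6.5 to E9.5 (1.52%) and 0 fell (0%) at a limma adjusted p under 0.05. Both are named for miR-199, gga-miR-199a for its mature strand and dre-miR-199* for the opposite strand. An unadjusted limma p under 0.05 was reached by 13 probes with higher values at E9.5 (9.85%) and by 5 with lower values (3.79%). The median difference over all tested probes was -0.033 on the log2 scale, with 62 probes above 0 and 70 below. All 132 had been detected at both stages, so no tested probe was seen at 1 stage alone.

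**Figure D1:**
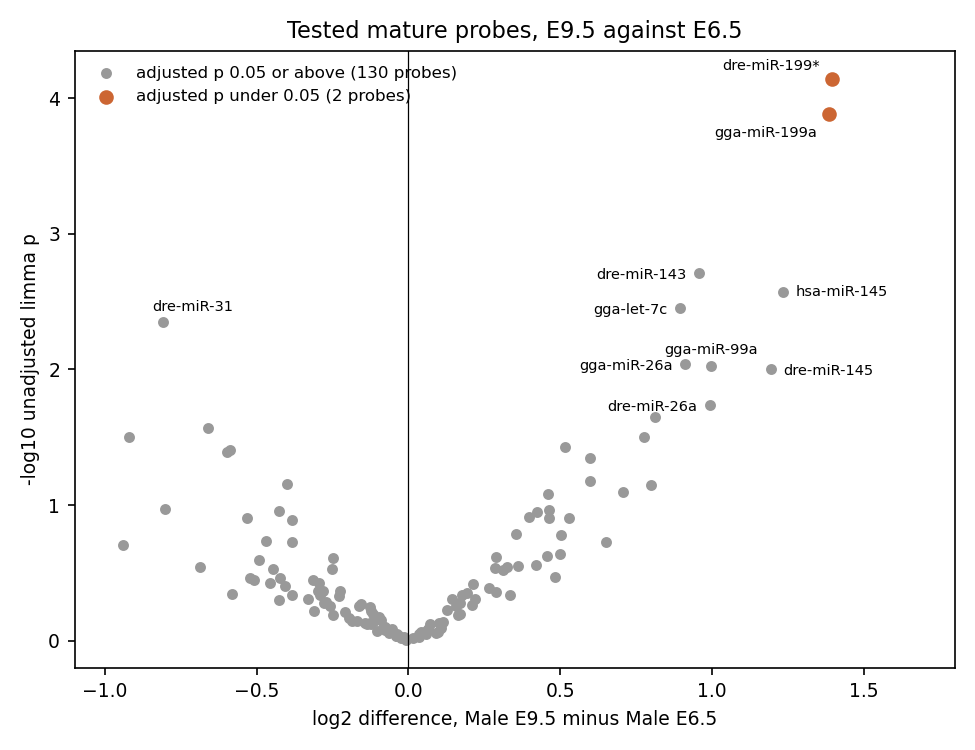
Each point is 1 of 132 tested mature probes, with the log2 difference Male E9.5 minus Male E6.5 on the x axis and -log10 of the unadjusted limma p on the y axis. The 2 orange probes, gga-miR-199a and dre-miR-199*, are the ones with an adjusted p under 0.05, and the lowest p among probes with lower values belongs to dre-miR-31.

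Both strands of miR-199 rose. On the log2 normalised scale gga-miR-199a read 7.93, 8.41 and 8.56 in Male E6.5 replicates 2, 3 and 6. In Male E9.5 replicates 1-1, 1-2, 2 and 3 it read 9.46, 10.27, 9.42 and 9.61. The groups did not overlap, and replicate 1-2 was the highest of the E9.5 arrays. The means were 9.69 ± 0.40 (SD, n = 4) and 8.30 ± 0.33 (SD, n = 3), a difference of 1.39 ± 0.28 (SE, adjusted p = 0.00866 in limma), or 2.61-fold.

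The dre-miR-199* probe, whose target is the star strand, read 7.65, 8.51 and 8.73 at E6.5 and 9.86, 9.62, 9.62 and 9.67 at E9.5, in the same order of replicates. The E9.5 arrays lay close together and all above the E6.5 arrays, of which replicate 2 was the lowest. The difference was 1.40 ± 0.27 (SE, adjusted p = 0.00866 in limma), or 2.63-fold, from means of 8.30 ± 0.57 (SD, n = 3) and 9.69 ± 0.11 (SD, n = 4).

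Without Male E6.5 replicate 2 the differences were 1.21 for gga-miR-199a and 1.09 for dre-miR-199*. Neither then passed (adjusted p = 0.0897 in limma for each), and the count of called probes fell to 0, with 10 probes at an unadjusted p under 0.05. Both kept a positive difference under every alternative run, from 1.18 to 1.72 for gga-miR-199a and from 1.09 to 1.78 for dre-miR-199*. The limma adjusted p ran from 0.000135 to 0.111 for the former and from 0.000432 to 0.111 for the latter.

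The partner probes with 2 mismatched bases stayed dim. Before normalisation the gga-miR-199a probe had foreground medians of 323.5, 400 and 508.5 at E6.5, against 138, 104 and 96 for its partner. At E9.5 its medians were 859, 1553.5, 799 and 580, against 116, 157, 171 and 75. Perfect match thus exceeded mismatch 2.34 to 5.30-fold on the E6.5 arrays and 4.67 to 9.89-fold on the E9.5 arrays. For dre-miR-199* the ratio ran from 2.30 to 5.73 at E6.5 and from 6.75 to 9.36 at E9.5. Neither partner was detected on any of the 7 arrays, and their normalised values differed by 0.17 and 0.059 between the stages.

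**Figure D2:**
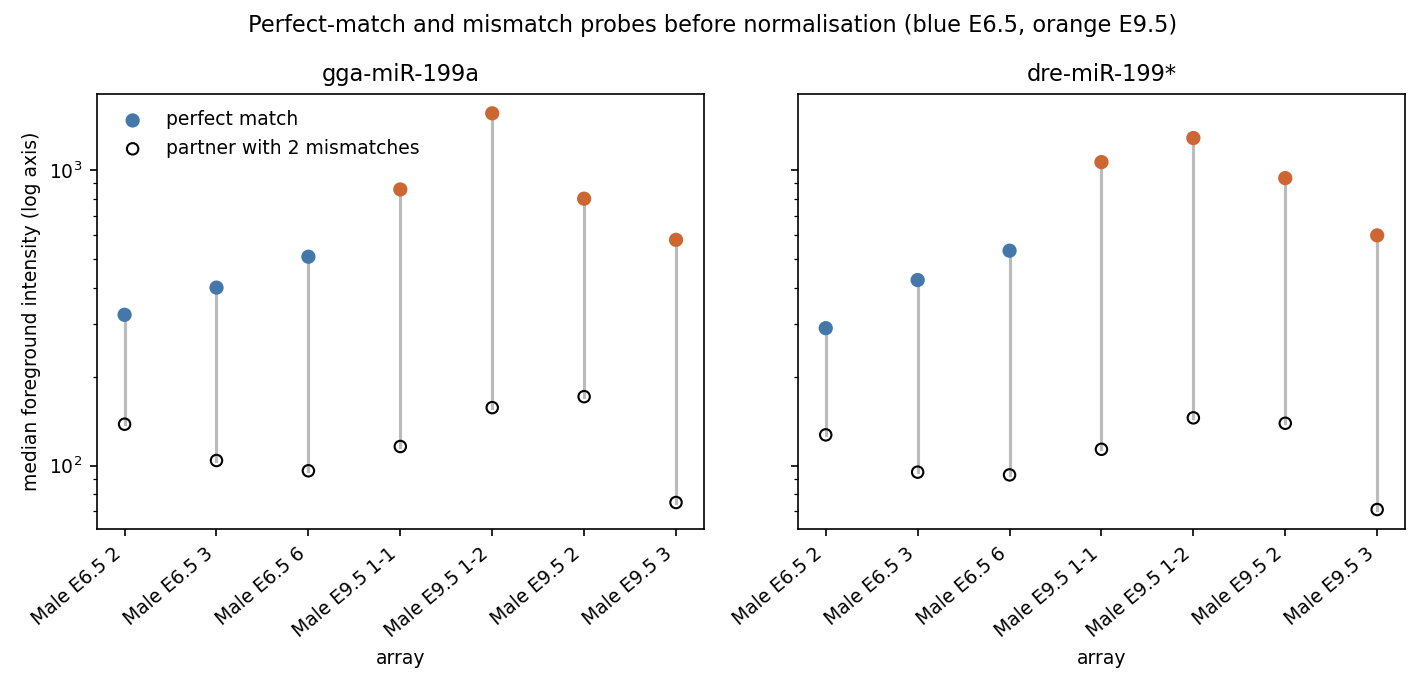
Median foreground intensity before normalisation (log axis) for gga-miR-199a and dre-miR-199* on each of the 7 arrays, filled for the perfect-match probe (blue E6.5, orange E9.5) and open for its partner with 2 mismatches. The perfect match is above its partner on every array, and the ratio for gga-miR-199a is largest, at 9.89, on Male E9.5 replicate 1-2.

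The labels and scan files give 2 technical groupings that cross the stages. The arrays lay in 3 slide sectors, each with both stages. Sectors 2 and 4 each held 1 array per stage, and sector 3 held 2 of E9.5 and 1 of E6.5. Of 131 tested probes with a value in all 3 sectors, 20 were higher at E9.5 in every sector and 19 lower. Within sectors 2, 3 and 4 the gga-miR-199a difference was 1.86, 1.50 and 1.05, and that of dre-miR-199* was 1.11, 2.09 and 0.95. Scan exposure was 0.5 s or 1 s at E6.5 and 0.5 s, 1 s or 2 s at E9.5. Among arrays exposed for 0.5 s, 1 per stage, gga-miR-199a differed by 1.68 and dre-miR-199* by 2.02. Among those exposed for 1 s, 1 of E9.5 and 2 of E6.5, the differences were 0.97 and 1.24. The E6.5 array in sector 3 and the E6.5 array exposed for 0.5 s were the same one, replicate 2. Both miR-199 probes were lowest on it, so the sector 3 and 0.5 s differences are not separate checks. With the sector as a block, limma called 8 probes higher and 1 lower: gga-miR-199a, dre-miR-199*, hsa-miR-145, dre-miR-143, hsa-miR-143, gga-let-7c, gga-miR-26a and gga-miR-99a higher, and dre-miR-31 lower. With exposure as a covariate the same 2 probes were called as without it.

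Another miR-199 probe did not move as far. The mmu-miR-199b probe, with 1 base changed from gga-miR-199a, read 6.11, 6.77 and 7.42 at E6.5 and 7.27, 6.72, 6.91 and 7.61 at E9.5. Its groups overlapped, it was detected on 3 of the 7 arrays, and its difference of 0.36 ± 0.32 (SE, adjusted p = 0.774 in limma) did not pass. It came to 0.031 without Male E6.5 replicate 2, 0.68 without Male E6.5 replicate 6 and 0.19 without Male E9.5 replicate 3. The hsa-miR-199b probe was detected on 0 arrays and not tested. In the GRCg7b gene table MIR199A2 neighbours MIR214 on chromosome 8, MIR199B1 lies on chromosome 17 and MIR199B on chromosome 3. Which of these genes the miR-199 signals came from was not tested.

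MiR-214, whose gene neighbours MIR199A2, was read by the dre-miR-214 probe alone. It gave 8.95, 7.83 and 7.30 at E6.5 and 8.48, 8.93, 8.99 and 7.71 at E9.5. The stages overlapped, and the highest E6.5 value came from replicate 2, the array on which both miR-199 probes were lowest. The difference was 0.50 ± 0.40 (SE, 95% interval -0.35 to 1.35, adjusted p = 0.773 in limma). It came to 0.96 without Male E6.5 replicate 2, 0.14 without Male E6.5 replicate 6 and 0.78 without Male E9.5 replicate 3. Whether it differed from that of the miR-199 probes was not tested. The partner of dre-miR-214 with 2 mismatched bases was detected on Male E6.5 replicate 2 alone of the compared arrays. Its foreground there was 277, against 602 for the perfect match. Outside the contrast dre-miR-214 read 9.27, 7.96 and 7.84 on Male E5.5 replicates 2, 3 and 6. On the Female E6.5 array, also a replicate 2, it read 9.02.

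**Figure D3:**
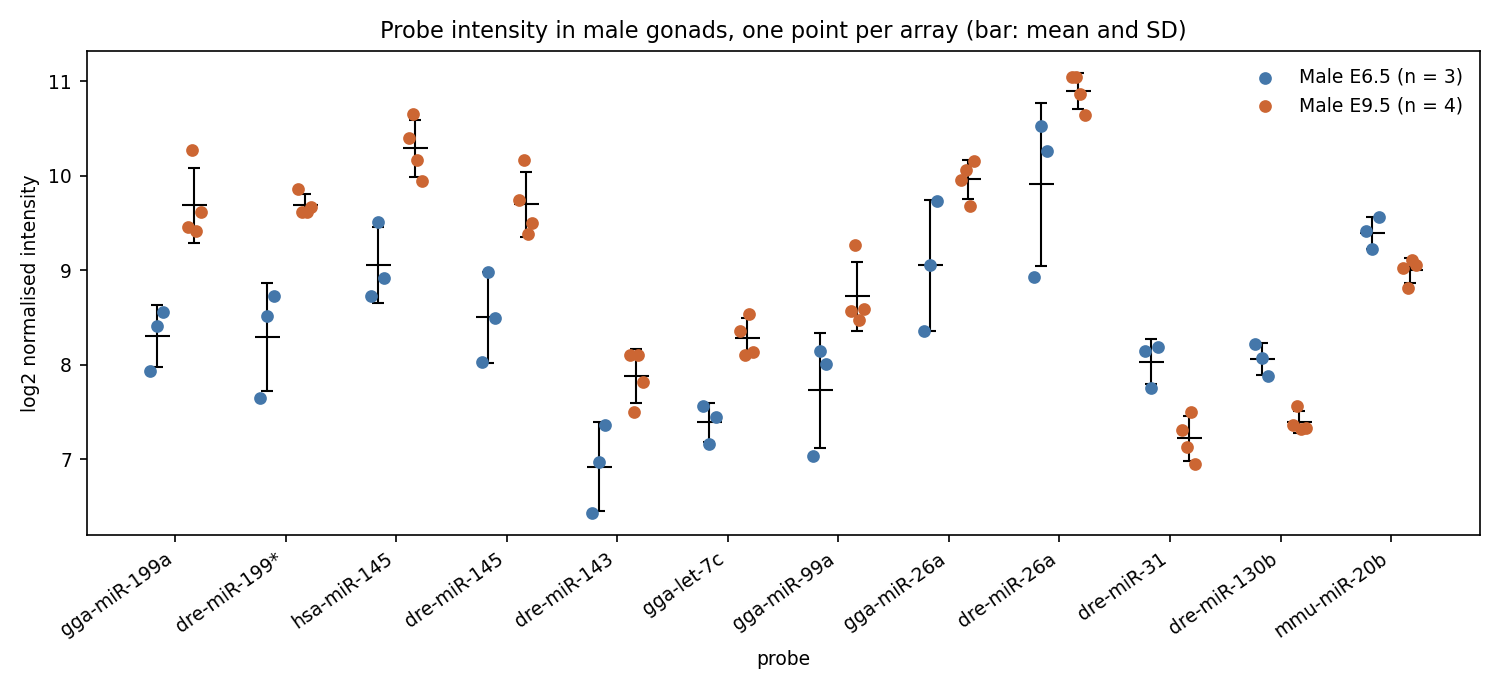
Log2 normalised intensity (y axis) of 12 probes on each array, 3 Male E6.5 arrays in blue and 4 Male E9.5 arrays in orange, with bars for the mean and SD. The first 2 probes, gga-miR-199a and dre-miR-199*, passed the test, and the other 10 are shown as values that did not.

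MiR-143 and miR-145, which are neighbours on chromosome 13 in the same gene table, had higher values at E9.5 without passing the test. The hsa-miR-145 probe read 8.73, 9.51 and 8.92 at E6.5 and 10.39, 10.65, 10.16 and 9.95 at E9.5. Its groups did not overlap, and it differed by 1.24 ± 0.35 (SE, adjusted p = 0.0883 in limma). The dre-miR-145 probe, also without overlap, differed by 1.19 ± 0.41 (SE, adjusted p = 0.146 in limma).

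The dre-miR-143 probe read 6.43, 6.97 and 7.37 at E6.5, where it was detected on 1 of 3 arrays, and 8.10, 7.50, 8.10 and 7.82 at E9.5, where it was detected on all 4. All E9.5 values were above the highest E6.5 value, and the difference was 0.96 ± 0.26 (SE, adjusted p = 0.0853 in limma). The hsa-miR-143 probe gave 0.81 ± 0.32 (SE, adjusted p = 0.271 in limma), with Male E6.5 replicate 6 at 7.61 inside the E9.5 range of 7.46 to 8.03. In slide sectors 2, 3 and 4 hsa-miR-145 differed by 1.14, 1.55 and 1.03, and dre-miR-143 by 0.53, 1.67 and 0.45. The E6.5 array of sector 3 was replicate 2, on which both probes were lowest.

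Of the 9 probes listed for mesenchyme and smooth muscle, 8 were tested, 2 were called higher and 0 lower. Those 2 are the miR-199 probes described above, the only ones called among all 132 tested probes (1.52%). All 8 had a positive difference, against 62 of the 132 tested probes. The median of the 8 was 1.08, against -0.033 over all tested probes. In 5 of the 8 all E9.5 arrays lay above all E6.5 arrays, which held for 12 of the 131 probes with a value on every array (9.16%). The summed normalised intensity of the list, undetected probes included, was 4263 to 5778 on the E9.5 arrays and 1925 to 2547 on the E6.5 arrays. Under the alternatives run the list's median ran from 0.89 to 1.45. The list draws on fewer miRNAs than probes, since several probes share a target, and was chosen with earlier results of these arrays known.

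Markers of other cell types were read beside it. Of 5 red blood cell probes, 3 were detected on no array and 2 were tested, both for miR-451, a miRNA of maturing erythrocytes. The summed level of that list, undetected probes included, was 629 to 1093 at E9.5 and 400 to 718 at E6.5. The dre-miR-451 probe read 6.68, 7.66 and 7.62 at E6.5 and 8.63, 8.25, 7.77 and 7.75 at E9.5. It did not overlap and differed by 0.77 ± 0.33 (SE, adjusted p = 0.298 in limma), while hsa-miR-451, with no mismatch to it over 22 bases, overlapped and gave 0.80 ± 0.41 (SE, adjusted p = 0.444 in limma). Without Male E6.5 replicate 2 they differed by 0.46 and 0.41. The part of blood in the values of the mesenchyme and smooth muscle list was not tested.

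None of the 10 white blood cell, 10 striated muscle and 2 liver probes was detected on any of the 7 arrays. The white blood cell list still summed to 567 to 631 at E9.5 and 569 to 739 at E6.5, since the sums include undetected probes. Of 12 epithelial probes 11 were detected on none and 0 were tested. Of 12 kidney probes, included because the mesonephros lies against the gonad, 4 were tested, all with the miR-204 seed and all with values below 0. Their median was -0.23, turning to 0.031 without Male E6.5 replicate 3, whereas it was -0.70 without Male E6.5 replicate 6. The kidney list summed to 1007 to 1210 at E9.5 and 943 to 1631 at E6.5, which overlap. Its largest negative difference was that of mmu-miR-204, -0.47 ± 0.34 (SE, adjusted p = 0.673 in limma), or -0.17 without Male E6.5 replicate 3. Of 2 endothelial probes 1 was tested, at -0.083, and the 3 tested neural probes differed by -0.23 to -0.024, the lowest being dre-miR-124, at 0.0059 without Male E6.5 replicate 2, whereas it was -0.43 without Male E6.5 replicate 3. Of 19 pluripotency probes 2 were tested, at -0.13 and 0.10.

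The gonad's own miR-202, known from testis and ovary of vertebrates, was detected on all 7 arrays by gga-miR-202. That probe read 9.46, 7.92 and 8.05 at E6.5 and 8.15, 7.67, 8.45 and 7.85 at E9.5, with replicate 2 of E6.5 far above the rest. The difference was -0.45 ± 0.41 (SE, 95% interval -1.32 to 0.43, adjusted p = 0.774 in limma) and turned to 0.044 without that array, and to -0.73 without Male E6.5 replicate 3. The dre-miR-202 probe differed by -0.28 ± 0.35 (SE, adjusted p = 0.853 in limma), and by 0.18 without it, -0.53 without Male E6.5 replicate 3, whereas it was -0.50 without Male E6.5 replicate 6. The hsa-miR-202 and mmu-miR-202 probes were detected on Male E6.5 replicate 2 alone of the 7 arrays, at 7.51 and 7.67. The gga-miR-202* probe was detected on none. Outside the contrast, hsa-miR-202 read 8.30 on Male E5.5 replicate 2, against 6.21 and 6.22 on replicates 3 and 6. On the Female E6.5 array, also a replicate 2, it read 7.80, but on Male E9.5 replicate 2 it read 6.49. The gga-miR-202 probe read 8.60, 6.94 and 7.64 at Male E5.5 and 8.20 on that female array. Whether the replicate number plays a part was not tested. Of 14 probes on the gonad list 5 were tested and 0 called. The highest was mmu-miR-140*, at 0.16 ± 0.35 (SE, adjusted p = 0.923 in limma). Of the 3 tested miR-140* probes 2 were below 0. The median of the gonad list was -0.28, turning to 0.18 without Male E6.5 replicate 2 and to -0.53 without Male E6.5 replicate 3.

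Let-7 values were mostly higher at E9.5. Of 19 let-7 family probes 7 were tested, 0 were called, and 6 had positive differences, with a median of 0.46. The gga-let-7c probe read 7.56, 7.16 and 7.45 at E6.5 and 8.36, 8.10, 8.54 and 8.14 at E9.5. Its groups did not overlap, and its difference was 0.89 ± 0.26 (SE, adjusted p = 0.0930 in limma). Among the 39 chicken-named probes alone it passed (adjusted p = 0.0487 in limma).

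The gga-let-7a probe, 1 base away, read 7.43, 7.45 and 8.44 at E6.5 and 8.08, 8.57, 8.0 and 8.84 at E9.5, and differed by 0.60 ± 0.28 (SE, adjusted p = 0.328 in limma). Male E6.5 replicate 6 lay inside the E9.5 range for that probe and below it for let-7c, and without that array the let-7a difference was 0.92. The gga-let-7b probe differed by 0.42 ± 0.25 (SE, adjusted p = 0.531 in limma). The mmu-let-7a and hsa-let-7d probes did not overlap between the stages and differed by 0.52 and 0.46. The normalised value of the mismatch partner of mmu-let-7a, itself undetected, rose by 0.43. Under the alternatives run the mmu-let-7a difference was as low as 0.098. The hsa-let-7d probe was detected on 1 of 3 E6.5 arrays. The only tested let-7 family probe with a negative difference was mmu-let-7d*, the star strand, at -0.14 ± 0.43 (SE, adjusted p = 0.942 in limma). The 6 tested probes that share the let-7 seed all had positive differences (median 0.49, and 0.38 to 0.96 under the alternatives run).

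In the GRCg7b table MIR99A neighbours MIRLET7C, which neighbours MIR125B2 on chromosome 1. The gga-miR-99a probe read 7.04, 8.14 and 8.01 at E6.5 and 8.57, 9.27, 8.48 and 8.59 at E9.5. The stages did not overlap, and the lowest array was replicate 2 of E6.5. The difference was 1.00 ± 0.34 (SE, adjusted p = 0.146 in limma). The shorter mmu-miR-99a probe, also without overlap, gave 0.60 ± 0.30 (SE, adjusted p = 0.444 in limma). Without Male E6.5 replicate 2 they differed by 0.65 and 0.30.

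The gga-miR-100 probe, with 1 base changed, read 8.03, 9.10 and 9.02 at E6.5 and 9.10, 7.43, 9.02 and 8.80 at E9.5. On Male E9.5 replicate 1-2 it was lowest, and that array had the highest miR-99a value. Its difference was -0.12 ± 0.39 (SE, adjusted p = 0.942 in limma) and turned to 0.26 without that array. The gga-miR-125b probe differed by 0.34 ± 0.44 (SE, adjusted p = 0.853 in limma), and by -0.18 without Male E6.5 replicate 2, 0.71 without Male E6.5 replicate 3, 0.22 without Male E9.5 replicate 1-2 and 0.64 without Male E9.5 replicate 2. Of the 6 tested miR-99, miR-100 and miR-125 probes 5 had positive differences, with a median of 0.47 that came to 0.090 without Male E6.5 replicate 2.

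The miR-26 probes also had their lowest values on Male E6.5 replicate 2. The gga-miR-26a probe read 8.36, 9.06 and 9.73 at E6.5 and 9.95, 10.06, 9.68 and 10.16 at E9.5. Replicate 6 of E6.5 lay inside the E9.5 range, and the difference was 0.91 ± 0.31 (SE, adjusted p = 0.146 in limma). The dre-miR-26a probe, which holds the same 21 bases and 1 more, did not overlap and differed by 0.99 ± 0.38 (SE, adjusted p = 0.241 in limma), and dre-miR-26b by 0.71 ± 0.38 (SE, adjusted p = 0.478 in limma). Without Male E6.5 replicate 2 gga-miR-26a differed by 0.58, dre-miR-26a by 0.52 and dre-miR-26b by 0.28, and without Male E6.5 replicate 6 dre-miR-26b differed by 1.09. The median of the 3 was 0.91, and 0.52 without Male E6.5 replicate 2.

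All 6 tested miR-30 probes and all 5 tested miR-15/16 probes had positive differences, with 0 called. The medians were 0.35 and 0.33, and 0.045 and 0.071 without Male E6.5 replicate 2. The largest were dre-miR-30e, at 0.53 ± 0.33 (SE, adjusted p = 0.531 in limma), and hsa-miR-16, at 0.46 ± 0.27 (SE, adjusted p = 0.531 in limma). Without Male E6.5 replicate 2 they came to 0.32 and 0.26, and hsa-miR-16 to 0.76 without Male E6.5 replicate 6. The dre-miR-30e probe was dimmer than its partner with 2 mismatches on Male E6.5 replicates 2 and 3, at ratios of 0.80 and 0.86. On Male E6.5 replicate 6 the ratio was 2.33, and at E9.5 it ran from 1.34 to 1.94. That partner was detected on replicate 3 of each stage, and its normalised value differed by -0.32 between the stages. The gga-miR-30d probe, at 0.19 ± 0.24 (SE, adjusted p = 0.853 in limma), was at the low end.

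**Figure D4:**
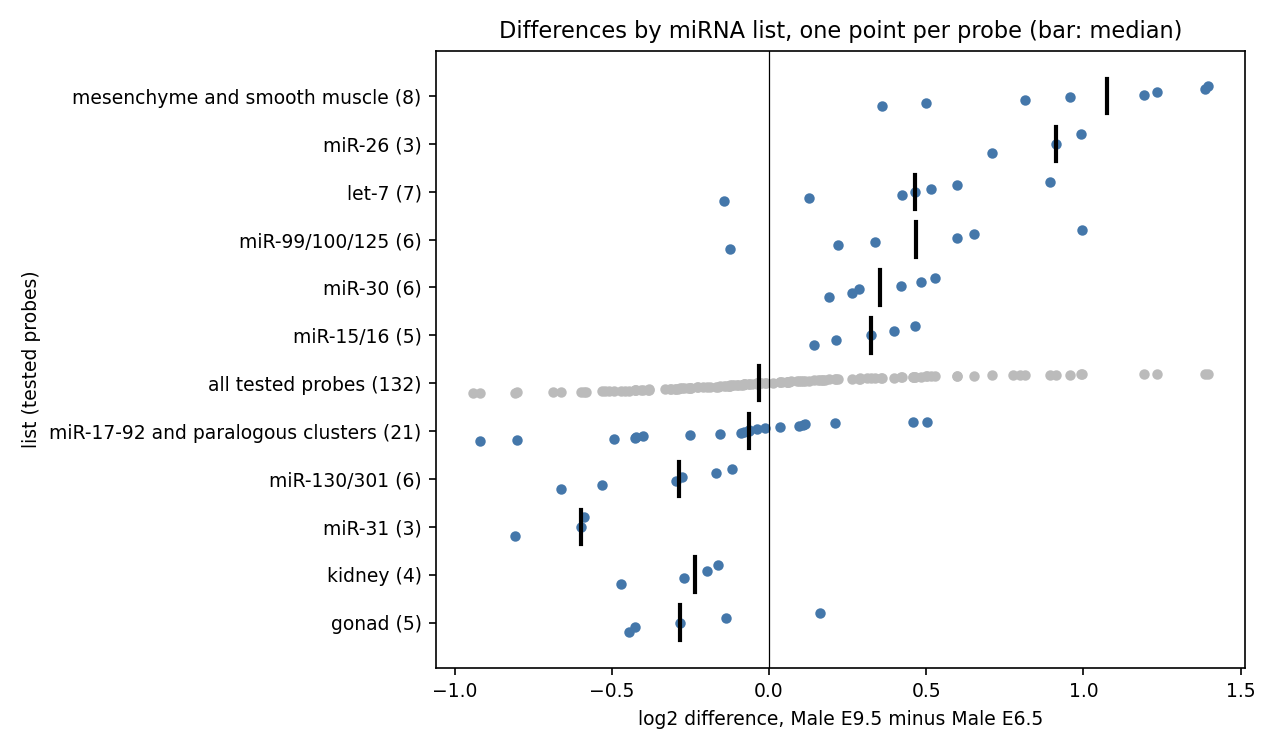
Log2 difference, Male E9.5 minus Male E6.5 (x axis), of every tested probe of each miRNA list (rows, with the number of tested probes), with a black bar at the median. The mesenchyme and smooth muscle list has the highest median, 1.08, the miR-31 list the lowest, -0.60, and all 132 tested probes, in grey, a median of -0.033.

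MiR-31, whose gene lies on the Z chromosome in the GRCg7b table, gave the lowest p among probes with lower values at E9.5. The dre-miR-31 probe read 8.15, 7.76 and 8.19 at E6.5 and 7.31, 7.13, 7.50 and 6.95 at E9.5. All E9.5 arrays were below all E6.5 arrays, and the difference was -0.81 ± 0.25 (SE, adjusted p = 0.0975 in limma). The mmu-miR-31 probe, also without overlap, differed by -0.59 ± 0.26 (SE, adjusted p = 0.313 in limma), and gga-miR-31, with Male E9.5 replicate 2 at 8.22 above Male E6.5 replicate 3 at 8.19, by -0.60 ± 0.27 (SE, adjusted p = 0.313 in limma). Without Male E6.5 replicate 6 the mmu-miR-31 difference was -0.39. All 3 tested probes were below 0, and their median stayed between -0.98 and -0.42 under the alternatives run. Within slide sectors 2, 3 and 4 dre-miR-31 differed by -0.63, -0.74 and -1.24.

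Values of the seed group of miR-17, miR-20 and miR-106, from the miR-17-92 cluster and its paralogues, which are known for promoting proliferation, were lower at E9.5. All 10 tested probes with that seed were below 0, with a median of -0.41 and 0 called. That median lay between -0.47 and -0.12 under the alternatives run, the latter with the replicate number as a block, where 4 of the 10 were above 0, gga-miR-20a at 0.030 and gga-miR-17-5p at 0.050 among them. Under 75th percentile scaling, median scaling and without Male E9.5 replicate 1-2, 2 of the 10 were above 0 in each. Nearest 0 was gga-miR-17-5p, at -0.014 ± 0.19 (SE, adjusted p = 0.963 in limma). It was among the brightest probes, at 10.86 to 11.04 on all 7 arrays, where quantile normalisation gives equal ranks equal values. With 75th percentile scaling it differed by 0.22 and with median scaling by 0.18. The mmu-miR-20b probe read 9.41, 9.22 and 9.56 at E6.5 and 9.02, 8.81, 9.11 and 9.05 at E9.5, without overlap, and differed by -0.40 ± 0.21 (SE, adjusted p = 0.444 in limma). The gga-miR-20b probe gave -0.43 ± 0.25 (SE, adjusted p = 0.531 in limma), and -0.25 without Male E6.5 replicate 2. The chicken MIR20B gene neighbours MIR18B and MIR19B-2 on chromosome 4 in the same table.

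Without Male E9.5 replicate 1-2 the median of that seed group was -0.19, and differences came to -0.53 for rno-miR-20b, -0.24 for hsa-miR-106a and -0.14 for gga-miR-20a. The rno-miR-20b probe read 7.23 there and 8.51 to 9.18 on the other E9.5 arrays, and differed by -0.92 ± 0.39 (SE, adjusted p = 0.298 in limma). The hsa-miR-106a probe read 8.51 there and 10.53 to 11.04 on the others, and differed by -0.80 ± 0.47 (SE, adjusted p = 0.531 in limma). The gga-miR-20a probe read 7.60 there and 8.56 to 9.27 on the others, and differed by -0.49 ± 0.42 (SE, adjusted p = 0.774 in limma). The gga-miR-106 probe, at -0.25 ± 0.23 (SE, adjusted p = 0.774 in limma), had its lowest value on replicate 2 instead, and came to -0.17 without it and -0.16 without Male E6.5 replicate 6. Over the whole set of 21 tested probes of these clusters the median was -0.063, with 7 above 0, the highest being rno-miR-363-3p at 0.50 ± 0.35 (SE, adjusted p = 0.647 in limma). That probe came to 0.11 without Male E6.5 replicate 2, whereas it was 0.81 without Male E6.5 replicate 6.

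All 6 tested miR-130 and miR-301 probes were below 0 as well, with a median of -0.29 that turned to 0.040 without Male E6.5 replicate 6. The dre-miR-130b probe read 8.22, 8.07 and 7.88 at E6.5 and 7.36, 7.57, 7.32 and 7.33 at E9.5. It did not overlap and differed by -0.66 ± 0.27 (SE, adjusted p = 0.295 in limma). The gga-miR-130b probe, with 1 base changed, overlapped and gave -0.53 ± 0.33 (SE, adjusted p = 0.531 in limma). It read 9.74 on Male E6.5 replicate 2 and differed by -0.14 without it. The gga-miR-301 probe gave -0.30 ± 0.32 (SE, adjusted p = 0.853 in limma), -0.68 without Male E6.5 replicate 2, whereas it was 0.20 without Male E6.5 replicate 6.

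In the remaining families 0 probes were called. The 4 tested miR-181 probes ran from -0.098 (dre-miR-181c) to 0.18 (gga-miR-181a), and the 4 miR-221 and miR-222 probes from -0.11 (gga-miR-222b) to 0.17 (mmu-miR-221). The 6 tested miR-23/24/27 probes ran from -0.46 (dre-miR-23b) to 0.46 (gga-miR-23b), 2 probes for the same miRNA with opposite signs, and dre-miR-23b came to -0.17 without Male E9.5 replicate 1-2. The 3 tested miR-10 and miR-196 probes, from the Hox clusters, ran from -0.39 (dre-miR-196a) to 0.31 (hsa-miR-10a). Without Male E9.5 replicate 1-2 dre-miR-196a came to -0.18, and hsa-miR-10a came to 0.077 without Male E6.5 replicate 2, 0.47 without Male E6.5 replicate 6 and 0.20 without Male E9.5 replicate 1-1. Of the miR-29, miR-34, miR-449 and miR-101 probes 0 were tested, since too few arrays detected them.

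Grouped by their bases opposite positions 2 to 8, the 132 tested probes held 64 different seeds, and 15 seeds were shared by at least 3 probes. Of the probes with non-overlapping stages, 12 had higher values at E9.5 (9.16%) and 4 lower (3.05%), and each has been described above. Targets of the tested probes held a median of 6 guanines, and those of the 525 untested probes a median of 5. The dye binds guanine, and the part of that in which probes were detected was not tested.

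The 3 Male E5.5 arrays of the same chip (replicates 2, 3 and 6) read 7.72, 8.16 and 7.66 for gga-miR-199a and 7.43, 8.14 and 7.82 for dre-miR-199*. Those values overlap the E6.5 values and lie below every Male E9.5 value. In females at E9.5 the means were 8.93 ± 0.27 (SD, n = 4) and 9.25 ± 0.21 (SD, n = 4). The 1 Female E6.5 array on the chip read 7.84 and 7.66. It is labelled replicate 2, the number of the Male E6.5 array on which both probes were lowest. These arrays are outside the contrast and enter through the shared quantile normalisation and the estimate of the spread. With only the 7 compared arrays the differences were 1.37 for gga-miR-199a and 1.39 for dre-miR-199*. Neither then passed (adjusted p = 0.0559 in limma for each).

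**Figure D5:**
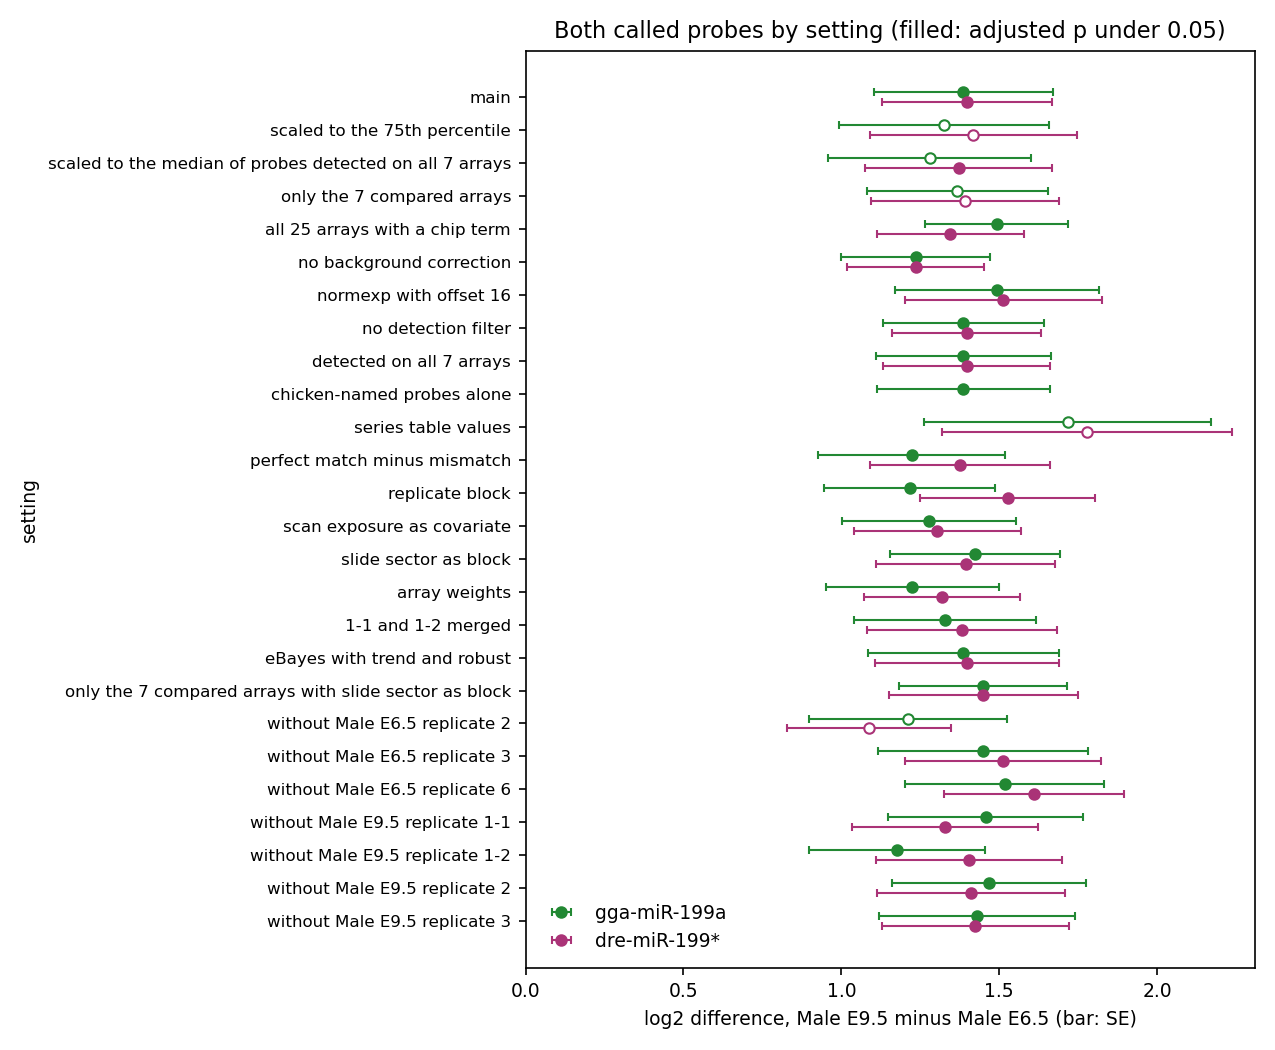
Log2 difference, Male E9.5 minus Male E6.5, with its SE (x axis), of gga-miR-199a (green) and dre-miR-199* (purple) in the main analysis and under each alternative (rows), filled where the limma adjusted p was under 0.05. All differences lie between 1.09 and 1.78, and the open symbols include those of the fit without Male E6.5 replicate 2.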

How the data were processed

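Per the file headers, the authors deposited 1 scan table per array, whose intensity column is the foreground median of each probe, combining up to 2 spots and leaving out excluded spots. They also deposited a series table of intensity values, used here only as an alternative. Scanner and image analysis settings are not given in the sources used here. These medians were corrected with normexp (offset 50) over all spots, put on the log2 scale, and quantile-normalised over the 657 mature probes of the 18 arrays of the chip, so equal ranks on different arrays give equal values. A limma model (limma 3.58.1, R 4.3.3) held 6 group means, and the contrast used 7 arrays. Benjamini-Hochberg adjustment ran over the 132 tested probes. No 2 arrays held identical values. The array number limits the precision.

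The procedure was tested on simulated data. Named probes were those called, the 10 lowest p-values in each direction, other probes for a called miRNA, the extremes of each list or family with at least 3 tested probes, and miR-202. The probes for miR-214, let-7a, let-7b, let-7d, mmu-miR-99a, miR-125b, miR-26b, miR-451, gga-miR-20a, gga-miR-106, gga-miR-17-5p, gga-miR-301 and gga-miR-30d were added after their values were seen. The arrays, lists and rules were chosen with earlier results of these data known. Gene neighbours came from RefSeq's GRCg7b table. The files name no genome build, and no coordinates are given. Alternatives covered background correction, scaling, filters, arrays in the fit, blocks and left-out arrays.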

Additional observations from a re-analysis of the deposited data

Results flagged for a closer look

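Among 53 tested group values of 4 arrays, 3 had 1 array beyond Dixon's 95% limit, where chance gives about 1 in 20. For gga-miR-99a, Male E9.5 replicate 1-2 read 9.27, against 8.48 to 8.59 on the other 3 E9.5 arrays. For gga-miR-125b, Male E9.5 replicate 2 read 9.34, against 10.53 on each of the other 3 E9.5 arrays. Replicate 2 was also the lowest for this probe at Male E6.5, at 8.89 against 10.65 and 10.16. At Male E5.5 it read 8.42, against 9.73 and 10.27. For gga-miR-17-5p, Male E9.5 replicate 2 read 11.04, against 10.86 to 10.87 on the others. The values of bright probes are tied because quantile normalisation gives equal ranks equal values.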

How the results depend on the processing

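Against 2 probes higher and 0 lower, limma called 0 higher with 75th percentile scaling (lowest adjusted p = 0.0533), with only the 7 compared arrays (0.0559) and with the series table values (0.111), 1 with median scaling, 4 with array weights, and 5 with only the 7 compared arrays and the sector as a block, an alternative chosen after seeing the data. It called 8 higher and 1 lower with all 25 arrays and a chip term, and again with the sector as a block. Leaving out 1 array gave 0 to 4 higher and 0 lower: 0 without replicate 2 of E6.5, 3 without replicate 1-2 of E9.5 and 4 without replicate 6 of E6.5. The cause of these changes was not tested. No background correction, offset 16, no filter, detection on all 7 arrays, perfect match minus mismatch, merging 1-1 with 1-2, exposure and robust eBayes each kept the same 2 calls. The groups share replicate numbers 2 and 3, whose deviations correlated at 0.51 and -0.093. The value for replicate 2 was the highest of all pairs of arrays across the stages, the next being 0.38. The main fit did not pair arrays by number, and whether arrays of the same number share a batch was not tested. The replicate block called the same 2 higher and 0 lower. The median over all tested probes moved from -0.033 to 0.12 with mismatch subtracted and to 0.071 with the block. Among the named probes, none of them called, those that turned sign were dre-miR-181c (0.097 with 75th percentile scaling, 0.052 with median scaling), gga-miR-222b (0.16 with mismatch subtracted, 0.030 with array weights), gga-miR-301 (0.052 with mismatch subtracted), gga-miR-17-5p (0.22 with 75th percentile scaling, 0.18 with median scaling, 0.065 with all 25 arrays, 0.045 with mismatch subtracted, 0.050 with the replicate block, 0.014 with array weights, 0.00017 with 1-1 and 1-2 merged) and, with the replicate block, mmu-miR-140* (-0.100), gga-miR-100 (0.28), dre-miR-23b (0.020) and gga-miR-20a (0.030). With 1 array left out, dre-miR-124 ran from -0.43 to 0.0059, gga-miR-202 from -0.73 to 0.044, dre-miR-202 from -0.53 to 0.18, dre-miR-181c from -0.23 to 0.079, gga-miR-222b from -0.35 to 0.16, gga-miR-125b from -0.18 to 0.71, gga-miR-30d from -0.052 to 0.35, mmu-miR-140* from -0.031 to 0.52, mmu-let-7d* from -0.44 to 0.23, gga-miR-17-5p from -0.053 to 0.047, gga-miR-301 from -0.68 to 0.20 and gga-miR-100 from -0.47 to 0.26. Keeping excluded spots was not run, because their value in the files is 0. For the 477 mature probes detected on none of the 7 arrays, no change could be measured at this signal over background.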
